A study of Arabidopsis thaliana with 16 samples.

Results

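The genes described here were sought as transcription factors or DNA-binding proteins, on expression arrays of the Arabidopsis pete1 mutant and the wild type (WT). They were to be found by words such as homeobox, zinc finger, MYB or HMG in a gene's description. The platform annotation and the RefSeq TAIR10.1 gene table used here hold symbols and synonyms and no description column, so these were searched. Of the 3439 probes, 692 name 1 gene, and for 67 of these the table gives a name in words. The search found 1 gene, AT4G03090, listed as Nodulin Homeobox (NDX). The other member, AT5G05330, was included by its locus tag as an HMG-box gene. The tables list it without a name, so they do not bear on that label. The members are thus 2 of 691 genes that a probe names alone. Further DNA-binding genes may be among the probes that the tables leave unnamed and were not analysed here.

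The data are 16 arrays of total RNA, 8 of pete1 and 8 of WT. The pete1 plants lack 1 of the plastocyanin isoforms. Both groups were of ecotype Columbia 0 and grew on soil. The sources used here do not give the organ, the age of the plants or the lesion in pete1. They do not say either which arrays share a plant or an RNA extract. The p-values below therefore reflect the spread among these arrays, which may be technical.

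Plastocyanin is a copper protein of the thylakoid lumen that carries electrons to photosystem I. Signals from the chloroplast are known to alter the transcription of nuclear genes, and DNA-binding proteins carry out that control. HMG-box proteins bind the minor groove of DNA and bend it, and many act on chromatin structure rather than at 1 fixed sequence. Homeobox genes encode proteins with a helix-turn-helix DNA-binding domain. In Arabidopsis NDX is known to bind single-stranded DNA at an R-loop (a DNA-RNA hybrid) that covers the antisense promoter of the flowering gene FLC.

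The deposited values are spot intensities on a linear scale with a ceiling of 100. Values of 0 made up 15.8% to 24.6% of a pete1 array and 13.2% to 17.8% of a WT array, and array medians ran from 0.0524 to 0.205 in pete1 and from 0.129 to 0.193 in WT. Levels are log2 of the quantile-normalized intensity. Values under 0.0581 (-4.10 on the log2 scale) were set to that floor, below which the arrays differ in what they can measure. Arrays with consecutive replicate numbers of a group (1 and 2, 3 and 4, and so on) deviated together from the group mean, with a median correlation across probes of 0.50 against -0.30 for other arrays of a group. Each such pair was therefore treated as a random block in limma's fit over 16 arrays, and the fit over 8 pair averages is given beside each call. Subtracting the group mean itself lowers the correlations among the arrays of a group, so the -0.30 is no independent baseline. Means and SDs of levels are over 4 pair averages. No probe that names 1 gene measures PETE1 or its paralogue PETE2, so the missing isoform gives no check of the labels. No such probe names a listed marker of mesophyll, guard cells, trichomes, root, flower or phloem either (0 of the 18 genes listed for these checks, PETE1 and PETE2 included). Probes with several symbols or none were not searched for these genes, so the tissue was not checked.

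AT5G05330, the HMG-box gene, was lower in pete1 on every array. Its deposited intensity was between 0 and 0.178 in pete1, with a median of 0.0625, against 0.424 to 0.685 in WT, with a median of 0.575. All 8 pete1 values thus lay below all 8 WT values before any normalization. Within pete1 the deposited value was 0 on replicate 2 and 0.0022 on replicate 3, and replicates 7 and 8 were the highest.

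**Figure D1:**
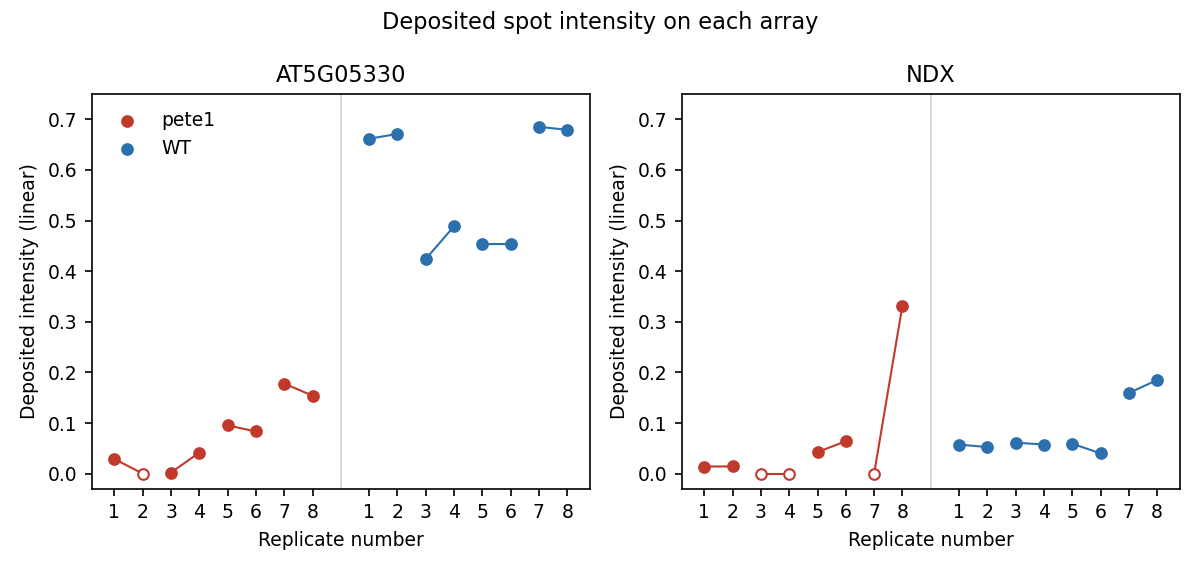
Deposited spot intensity (linear, y axis) of AT5G05330 and NDX on each array by replicate number (x axis), pete1 in red and WT in blue. Lines join arrays with consecutive numbers and open circles mark deposited values of 0; AT5G05330 is at most 0.178 in pete1 and at least 0.424 in WT, while the groups overlap for NDX.

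On the normalized log2 scale AT5G05330 ran from -4.10 to -2.95 on the pete1 arrays, with a median of -3.73, and from -1.36 to -0.40 on the WT arrays, with a median of -0.99. It lay at the floor on 2 of 8 pete1 arrays and on 0 of 8 WT arrays. The 4 pete1 pair averages were -3.71, -3.83, -3.96 and -3.05, against -0.44, -1.12, -1.36 and -0.92 in WT. The lowest WT pair lay 1.69 above the highest pete1 pair. Arrays of a pair differed by 0.14 to 0.78 in pete1 and by 0.0028 to 0.15 in WT.

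The mean level was -3.64 ± 0.41 in pete1 and -0.96 ± 0.39 in WT (SD, n = 4 pair averages). AT5G05330 fell by 2.68 on the log2 scale (SE 0.28, 95% interval -3.28 to -2.08, limma adjusted p = 5.5e-05), which is a 6.41-fold lower intensity. The values of 2 pete1 arrays were raised to the floor, so this fold depends on the floor. With each array's own floor the change was -2.78. Over 8 pair averages limma's adjusted p was 0.0113, and the exact two-sided permutation test of 4 against 4 pair averages gave p = 0.0286, the smallest it can give, on this scale and on the deposited intensities. With 1 of the 8 pairs also left out of the pair averages, a setting chosen after seeing the data, the change was -2.90 to -2.57 and limma's adjusted p was over 0.05 in 3 of 8 fits: it was 0.0763 when pete1 replicates 1 and 2 were left out, 0.0685 for pete1 replicates 3 and 4, and 0.0580 for WT replicates 3 and 4.

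**Figure D2:**
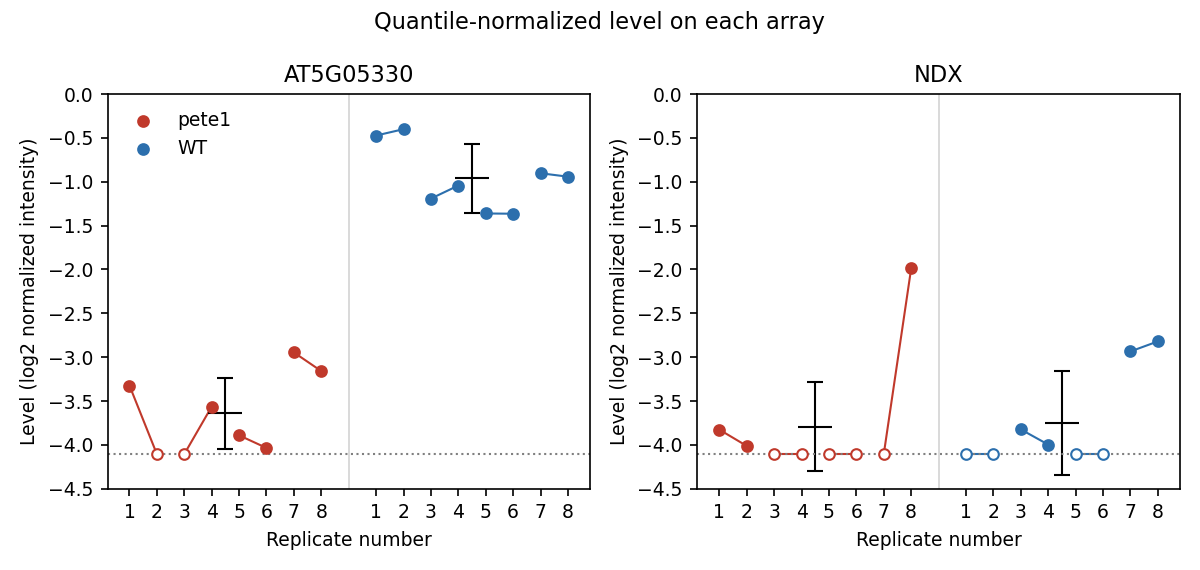
Level of AT5G05330 and NDX on each array (log2 of quantile-normalized intensity, y axis) by replicate number (x axis), pete1 in red and WT in blue; open circles are values at the floor (dotted line), lines join arrays with consecutive numbers, and black bars are the mean ± SD of 4 pair averages. AT5G05330 averages -3.64 in pete1 and -0.96 in WT with no overlap; NDX lies at or near the floor on most arrays of both groups.

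Array medians moved with the groups on replicates 1 to 4, and the values of AT5G05330 are therefore given by replicate number as well, a split made after the medians were seen. The part of array brightness in the result was not tested. On replicates 1 to 4 the array medians were 0.0524 to 0.0856 in pete1 and 0.129 to 0.170 in WT, and the level of AT5G05330 was -4.10 to -3.32 in pete1 and -1.19 to -0.40 in WT. On replicates 5 to 8 the medians were 0.196 to 0.205 in pete1 and 0.159 to 0.193 in WT. On replicates 5 to 8 the deposited intensity of AT5G05330 was 0.0833 to 0.178 in pete1 and 0.453 to 0.685 in WT, and its level was -4.03 to -2.95 in pete1 and -1.36 to -0.90 in WT.

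Among all 3231 probes fitted, AT5G05330 ranked 3 by its p and 8 by the size of its fall. Among the 658 fitted probes that name 1 gene, its fall ranked 3. AT5G05330 was included by its locus tag with earlier results of these data known. Its ranks and p-values describe these arrays and are no independent support. In this fit 144 of 3231 probes passed (4.46%), 68 higher and 76 lower in pete1, and over pair averages 25 (0.774%). For 260 probes (8.05%) all pair averages of pete1 lay on 1 side of those of WT, and for 99 (3.06%) the single arrays did. AT5G05330 is among the 76 lower probes, among the 25 over pair averages and in both sets without overlap. The median change over all probes fitted was 0.04.

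**Figure D3:**
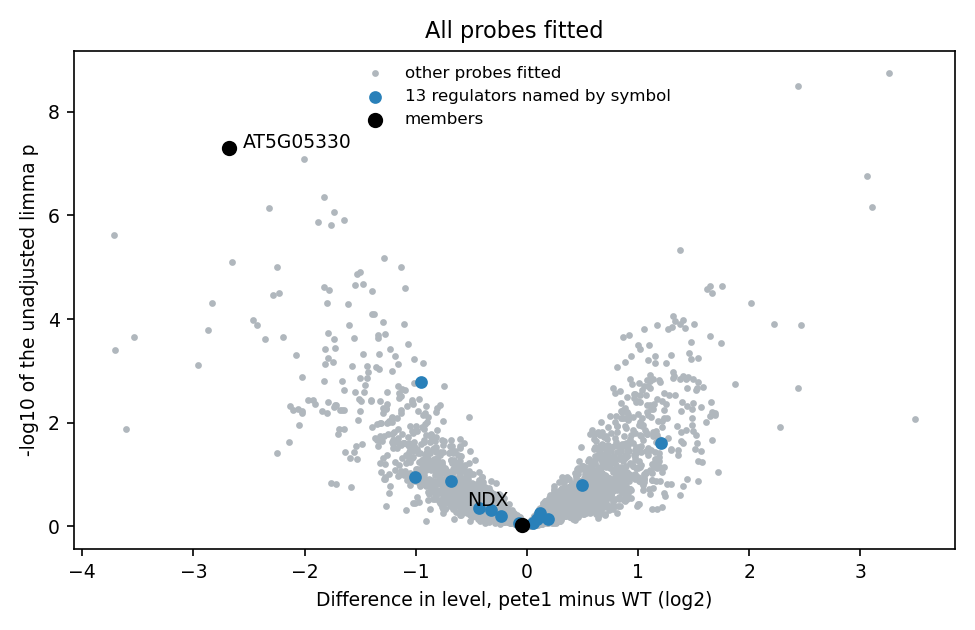
Change in level, pete1 minus WT (log2, x axis), against -log10 of the unadjusted limma p (y axis) for the 3231 probes fitted, with the 2 members in black and the 13 regulators named by symbol in blue. AT5G05330, at -2.68, stands among the most extreme falls, and NDX, at -0.04, lies at the base of the cloud.

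NDX, the homeobox gene, was near the floor in both groups and showed no difference that these arrays could measure. Its deposited intensity was 0 to 0.332 in pete1, with a median of 0.0142, and 0.0400 to 0.185 in WT, with a median of 0.0584. Deposited values of 0 occurred on 3 of 8 pete1 arrays and on 0 of 8 WT arrays. After normalization 5 of 8 pete1 arrays and 4 of 8 WT arrays were at the floor.

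The NDX level ran from -4.10 to -1.99 in pete1 and from -4.10 to -2.82 in WT, and the groups overlapped. The single highest value was that of pete1 replicate 8, while pete1 replicate 7, its consecutive array, was at the floor. In WT the same replicate numbers, 7 and 8, were the highest, at -2.93 and -2.82, and lay close together. The pair averages were -3.92, -4.10, -4.10 and -3.05 in pete1, against -4.10, -3.91, -4.10 and -2.88 in WT.

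NDX averaged -3.79 ± 0.51 in pete1 and -3.75 ± 0.59 in WT (SD, n = 4 pair averages). The change was -0.04 on the log2 scale (SE 0.48, 95% interval -1.07 to 0.98, limma adjusted p = 0.976; exact permutation p = 0.829 over pair averages). With other scalings it was -0.56 (median), -0.46 (75th percentile), -0.48 (deposited scale) and -0.23 (cyclic loess), with limma adjusted p of 0.764, 0.821, 0.913 and 0.932, and with each array's own floor it was -0.19 (0.930). With so many values at the floor this interval covers only what lies above it. A change below the floor was not detectable here.

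Of the 2 members 1 fell, 0 rose and 1 did not pass the test. The one that fell, AT5G05330, was included by its locus tag, and the members were chosen with earlier results of these data known. The count is therefore no result about DNA-binding genes as a class. Of all probes fitted 2.35% passed as lower in pete1 and 2.1% as higher. The median change of the members was -1.36, beside 0.04 over all probes fitted, and it is the midpoint of 2 unlike values. The difference between the members in their change was not tested, because NDX has too few values above the floor.

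A list of 20 regulators of chloroplast development, light and copper responses was drawn up for comparison, among them SPL7, GLK1, GLK2, HY5 and the plastid sigma factors. None is named alone by a probe (0 of 20). Probes with several symbols or none were not searched for them, so their absence from the arrays is not shown. For comparison with the members, 13 other genes whose symbols name a regulator of transcription, chromatin or DNA were therefore taken from the table. The search for members did not find them, because their symbols and synonyms lack its words, and they were chosen by name. Without gene descriptions it is not known which of them would meet the rule. Of these 13 genes 0 rose, 1 fell and 12 did not pass the test (called share over all probes 4.46%). Their changes ran from -1.01 to 1.21 with a median of -0.07. AT5G05330 was included with earlier results of these data known, so its larger change beside theirs is no test.

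The gene that fell was IAA31, of the Aux/IAA family of repressors in auxin signalling. Its level ran from -0.40 to 0.47 in pete1, with a median of 0.20, and from 0.22 to 1.46 in WT, with a median of 1.37. WT replicates 1 and 2, at 0.23 and 0.22, lay within the pete1 range, and the other 6 WT arrays lay above it. The mean was 0.14 ± 0.30 in pete1 and 1.097 ± 0.58 in WT (SD, n = 4), a change of -0.96 (SE 0.25, limma adjusted p = 0.0415). Over pair averages the adjusted p was 0.219, and IAA31 passed in 8 of 44 alternative settings, so its call depends on the setting. Without WT replicates 1 and 2 the change was -1.25, with an adjusted p of 0.0017, and 0.0569 over pair averages.

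TCP15, a TCP family transcription factor, had the highest change of the 13. Its level ran from -1.98 to -0.21 in pete1, with a median of -1.52, and from -3.48 to -0.91 in WT, with a median of -3.01. The groups overlapped, and the change of 1.21 did not pass (SE 0.49, limma adjusted p = 0.209). With a pair left out TCP15 passed in 1 of 8 fits, and in 1 of 8 over pair averages, a setting chosen after seeing the data. That was without WT replicates 7 and 8, where the change was 1.73, with an adjusted p of 0.0213, and 0.0412 over pair averages. Across the 8 fits the change was 1.01 to 1.73, and the adjusted p reached 0.472, or 0.568 over pair averages. It passed in 0 of 16 fits with 1 array left out and in 1 of 12 other settings, and its change was 0.71 on the deposited scale.

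SPL (SPOROCYTELESS, also called NOZZLE), a regulator of sporogenesis, had the lowest change, -1.01 (SE 0.60, limma adjusted p = 0.465). Its level ran from -3.31 to -1.74 in pete1 and from -3.11 to -0.69 in WT. Its pair averages did not overlap, as in 8.05% of all probes, but its single arrays did.

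The AGAMOUS-like genes among the 13, named for a family of MADS-box factors, had changes of -0.69 (AGL103), 0.05 (AGL26) and -0.07 (AGL54), with limma adjusted p of 0.499, 0.957 and 0.957. LAS, a GRAS family regulator of axillary meristems, had a change of -0.32 (adjusted p = 0.842). None of the 4 passed, and the changes of AGL26 and AGL54 turned sign with the scaling or with arrays left out.

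Of the genes for general transcription and chromatin, RAP74, a subunit of the general factor TFIIF, had a change of 0.50 (limma adjusted p = 0.542), and IYO (MINIYO), which acts with RNA polymerase II, one of -0.23 (0.878). The chromatin remodelling gene chr31 had a change of -0.43 (0.829), with 6 of 8 pete1 and 5 of 8 WT arrays at the floor. DME, a DNA glycosylase that removes methylated cytosine, lay at the floor on 6 of 8 pete1 and 8 of 8 WT arrays, so no fold is given. OSB1, which binds single-stranded DNA in organelles, had a change of 0.09 (adjusted p = 0.917) with 5 of 8 pete1 and 6 of 8 WT arrays at the floor. MHF2, a histone-fold protein of DNA repair, had one of 0.19 (0.915).

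**Figure D4:**
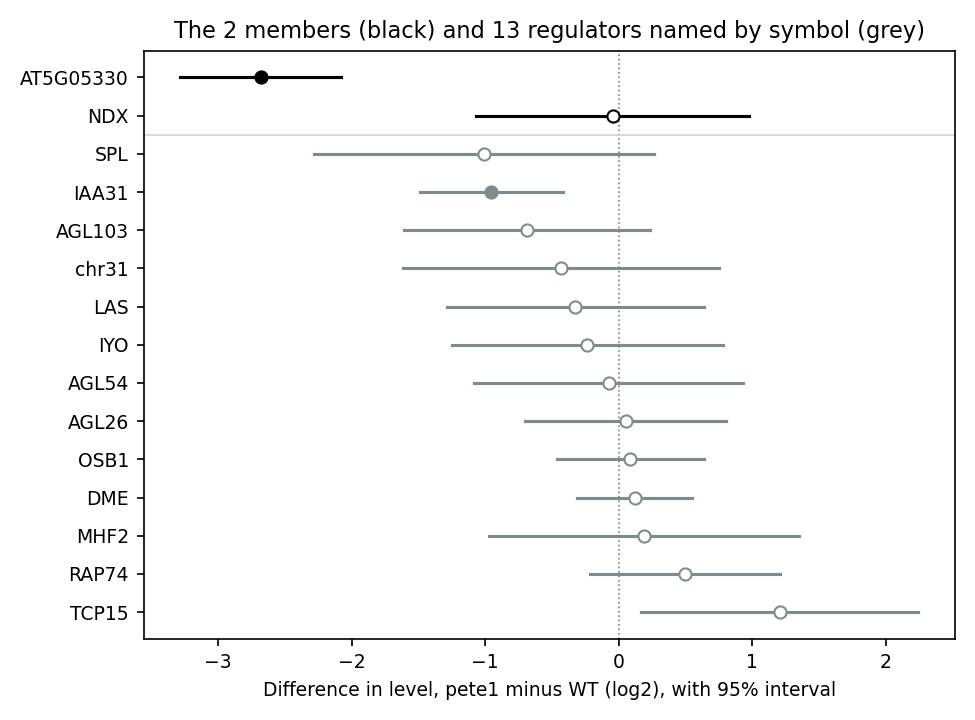
Change in level, pete1 minus WT (log2, x axis), with its 95% interval for the 2 members (black) and 13 regulators named by symbol (grey); filled circles passed limma's test at an adjusted p under 0.05. The interval of AT5G05330, from -3.28 to -2.08, lies apart from 0, and among the others IAA31 alone is filled.

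The size of the fall of AT5G05330 varied little with the processing. Over the settings that used all arrays it was between -3.05, on the deposited scale, and -2.51, with cyclic loess, and it passed in each of these 12 alternatives. On the deposited scale the median of all probes was itself at -0.30, and over pair averages on that scale the adjusted p was 0.0491. With 1 array left out the change was -2.79 to -2.57, and the adjusted p at most 0.00024.

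**Figure D5:**
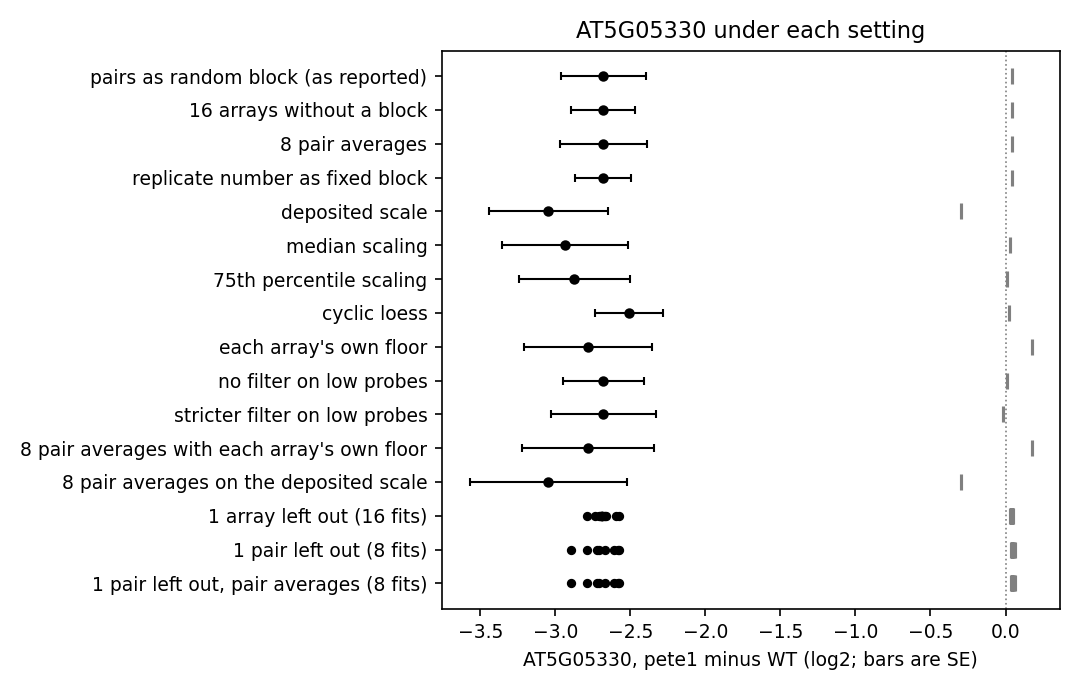
Change of AT5G05330, pete1 minus WT (log2, x axis), under each setting (y axis); circles are the change, bars its SE, and grey ticks the median change of all probes in the same fit. All circles lie between -3.05 and -2.51; in the lowest line 3 of the 8 fits had an adjusted p over 0.05.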

How the data were processed

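The deposited table holds spot intensity of 3439 probes on 16 arrays. The sources used here do not give how the authors scanned, background-corrected and scaled the arrays, nor the genome build. Groups and replicate numbers come from the sample titles. Of 692 probes with 1 gene symbol, 690 matched the RefSeq TAIR10.1 gene table, used for names only. Probes with several symbols (870) or none (1877) were not named.

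Intensities were quantile-normalized with limma 3.58.1 in R 4.3.3. For each array the 5th percentile of the positive values was taken, and the highest of these (0.0581) served as the floor on all arrays before log2. At this floor lay 28.4% of the values. The 208 probes at the floor on all arrays were left out, leaving 3231. The test was limma (lmFit, eBayes), with consecutive arrays as a random block (duplicateCorrelation, 0.645), two-sided, with Benjamini-Hochberg adjustment over all probes at 0.05. The fits were tested on simulated data. The members and lists were chosen with earlier results of these data known. The rule for named genes was every member that passes, AT5G05330, and the member with the smallest p and the largest change of each family; this names both members. The 13 regulators were added by name. The number of arrays limits the precision. Alternatives were other scalings, floors, filters and blocks, pair averages, and leaving out each array or pair. No sequences are shown.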

Additional observations from a re-analysis of the deposited data

Results flagged for a closer look

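In each group of 8 arrays, the levels of the 2 members and the 13 regulators, the array medians and the shares of 0 values were examined for 1 array lying apart. This was so in 6 of 34 sets of values. The rule flags about 1 in 20 sets of independent, normally spread values. Values at the floor and arrays that deviate in pairs depart from that, so the 2 shares cannot be compared. NDX was -1.99 on pete1 replicate 8, with the next value at -3.83. The other 5 concern regulators. TCP15 was -0.21 on pete1 replicate 8 (next -1.23), chr31 was -2.35 on pete1 replicate 5 (next -3.47), and DME was -3.35 on pete1 replicate 2 (next -3.90). OSB1 was -3.19 on WT replicate 2 (next -4.06), and SPL was -3.11 on WT replicate 2 (next -1.79). In NDX, chr31, DME and OSB1 most other arrays of the group lay at or near the floor. No array stood out for AT5G05330. Causes were not tested.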

How the results depend on the processing

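The change of AT5G05330 kept its direction in all 44 alternatives and passed in 41; the 3 losses were over pair averages with 1 pair left out (range over all fits with an array or pair left out, -2.90 to -2.57). The members called were accordingly 0 to 1 with arrays or pairs left out and 1 otherwise. Their median change was -2.68 with the filter of 8 arrays above the floor, which removes NDX, and -1.59 to -1.21 with arrays or pairs left out. The 144 calls over all probes (68 higher, 76 lower) became 408 (208, 200) over 16 arrays without a block, 25 (8, 17) over pair averages, 67 (6, 61) on the deposited scale, 65 (25, 40) with each array's own floor and 80 (27, 53) with the stricter filter. Chosen after seeing the data, pair averages with each array's own floor gave 9 (5, 4) and pair averages on the deposited scale 24 (5, 19). With arrays or pairs left out there were 1 to 231 calls, 1 to 96 higher and 0 to 135 lower. With the random block the counts ran from 54 without pete1 replicates 5 and 6 to 231 without WT replicates 1 and 2. Over pair averages 1 call was left without pete1 replicates 3 and 4 or without WT replicates 3 and 4.

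With the replicate number as a fixed block there were 566 calls (282, 284). AT5G05330 kept its call (limma adjusted p = 6.7e-05), while SPL (0.0119) and TCP15 (0.0162) gained one. That fit left out the random block of consecutive arrays, so it treated the arrays of a pair as independent. The deviations of same-numbered pete1 and WT arrays correlated at 0.0633 to 0.435, with 7 of 8 above 0.1, and the labels give the number no meaning, so it was not taken to pair the samples. Direction reversed for some uncalled genes. AGL26 was -0.31 on the deposited scale, with or without pair averages, and AGL54 was 0.17 with cyclic loess and 0.059 with each array's own floor, with or without pair averages. With arrays or pairs left out, NDX ran from -0.30 to 0.25, AGL26 from -0.15 to 0.37, AGL54 from -0.33 to 0.33, IYO from -0.60 to 0.081, MHF2 from -0.28 to 0.64, OSB1 from -0.035 to 0.40 and chr31 from -0.67 to 0.12. The cause was not tested. Values at 0 and the floor limit what dim probes such as NDX can show.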
